A study of Mus musculus with 4 samples.

Results

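Cxcl14 and Tafa1 are 2 of the 300 genes of an imaging panel that was read in retinal ganglion cells (RGCs), the neurons whose axons form the optic nerve. They were taken by gene symbol from the deposited table and followed over all 45 RGC types the authors named, over 5 retinas and over the position of each cell. The retinas came from wild-type C57BL/6 mice that received no treatment; the labels used here give no age or sex. They were cut en face into sections of 20 µm, and transcripts were counted as puncta in each of 131379 cells with the Xenium method, which images single RNA molecules in tissue. There is 1 group, so every comparison below is between types, positions or cells of the same retinas, and the retina is the replicate (n = 5).

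Cxcl14 encodes a small secreted protein of the CXC chemokine family, whose members are best known for attracting immune cells. Tafa1, formerly Fam19a1, encodes a small secreted protein of the TAFA family, which is distantly related to the CC chemokines, is found mainly in neurons and whose members have been found bound to neurexins at the synapse. RGCs are excitatory cells marked by Rbpms and the glutamate transporter Slc17a6. They lie in one layer together with displaced amacrine cells, which are inhibitory neurons that use GABA or glycine, some with acetylcholine as well. Cxcl14 was the 1 member on the panel of a list of 32 chemokines and chemokine receptors, and Tafa1 and Tafa3 were the 2 on the panel of a list of 12 TAFA genes and proposed partners.

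The retinas held between 13127 and 41048 cells each, and the median cell had 285 to 326 puncta, depending on the retina. No cell identifier occurred more than once. Nothing in the labels states how many animals the retinas were taken from, so the p-values measure the spread between these retinas. Retinas 4 and 5 shared a slide, as did retinas 3 and 5. All cells in the table were classed as RGCs, so no cell type known to lack either gene was there to give a background of detection. Levels are puncta of the gene per 1000 puncta of the panel, given as mean ± SD over the 5 retinas. The number of probes differs between genes, so the levels of Cxcl14 and Tafa1 are not compared with each other.

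Which RGC types carried the genes was the first question. The types were assigned by the authors from the same cells, and these genes were chosen by their levels over types and, for Cxcl14, by its difference between centre and periphery, so both are described without a test. Tafa1 was strongly graded between types, with a 21.3-fold span from the highest to the lowest mean and a coefficient of variation over types of 95.5%. Cxcl14 was detected in every type and varied less between types, with a 5.81-fold span. Its coefficient of variation was 37.8%, against a median of 59.5% over the panel. For Cxcl14, 37 of the 45 types lay within 1.5-fold of the median type, and for Tafa1 21 did.

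Cxcl14 was highest in 33_M1, a type named for M1 cells, which are intrinsically photosensitive through melanopsin. Its levels there were 6.35, 10.1, 10.5, 6.78 and 10.4 in retinas 1 to 5 (8.82 ± 2.07). Retinas 1 and 4 were lower than the other 3 in this type. Next came 40_M1dup, with 5.38, 9.74, 6.59, 6.37 and 8.44 (7.31 ± 1.76), and 28_FmidiOFF, an F-RGC type, with 5.70, 6.64, 6.26, 6.84 and 6.72 (6.43 ± 0.46). The order of 33_M1 above 40_M1dup held in every retina, whereas 40_M1dup was above 28_FmidiOFF in 3 of 5. The types 44_Novel (5.05 ± 1.69), 32_F_Novel (4.91 ± 0.75) and 15_Novel (4.05 ± 0.47) followed. The lowest were 43_AlphaONS (1.52 ± 0.22), 42_AlphaOFFS (1.65 ± 0.16) and 19_Novel (2.16 ± 0.49). The first 2 of these are alpha cells, RGCs with large cell bodies. Of the 44 neighbouring pairs in the order of Cxcl14, only 3 were ordered alike in all 5 retinas; types further apart in the order were not compared in this way.

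Tafa1 was highest in 04_FminiOFF, a small F-RGC type, with 4.79, 5.51, 4.75, 4.76 and 5.09 in retinas 1 to 5 (4.98 ± 0.33). No other type reached that range in any retina. It was followed by 19_Novel at 3.12, 2.98, 3.31, 2.85 and 3.33 (3.12 ± 0.21). Then came 16_ooDS_DV, named for ON-OFF direction-selective cells, at 2.92, 3.33, 2.90, 3.16 and 2.87 (3.03 ± 0.20). The types 10_Novel (2.90 ± 0.21), 24_Novel (2.53 ± 0.29) and 28_FmidiOFF (2.31 ± 0.24) were the next 3. Values of neighbours from 19_Novel to 28_FmidiOFF overlapped. Within each of the 5 retinas, though, 16_ooDS_DV was above 10_Novel and 10_Novel above 24_Novel. Over the whole order 6 of 44 neighbouring pairs were ordered alike in all retinas. The highest 5 types held 46.1% of all Tafa1 puncta in 13.8% of the cells. Lowest were the alpha types 45_AlphaOFFT (0.23 ± 0.08), 43_AlphaONS (0.25 ± 0.06) and 42_AlphaOFFS (0.25 ± 0.07).

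Thus 28_FmidiOFF was among the highest 6 types of both genes, and 43_AlphaONS and 42_AlphaOFFS were among the lowest 3 of both. In contrast, 19_Novel was second of all types for Tafa1 and among the lowest 3 for Cxcl14. The related gene Tafa3 was highest in 03_FminiON (2.22 ± 0.19) and was at 0.21 ± 0.09 in 04_FminiOFF, where Tafa1 was highest. Over the 45 types, which share retinas and cell depth, Spearman's rho between Cxcl14 and Tafa1 was 0.14.

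**Figure D1:**
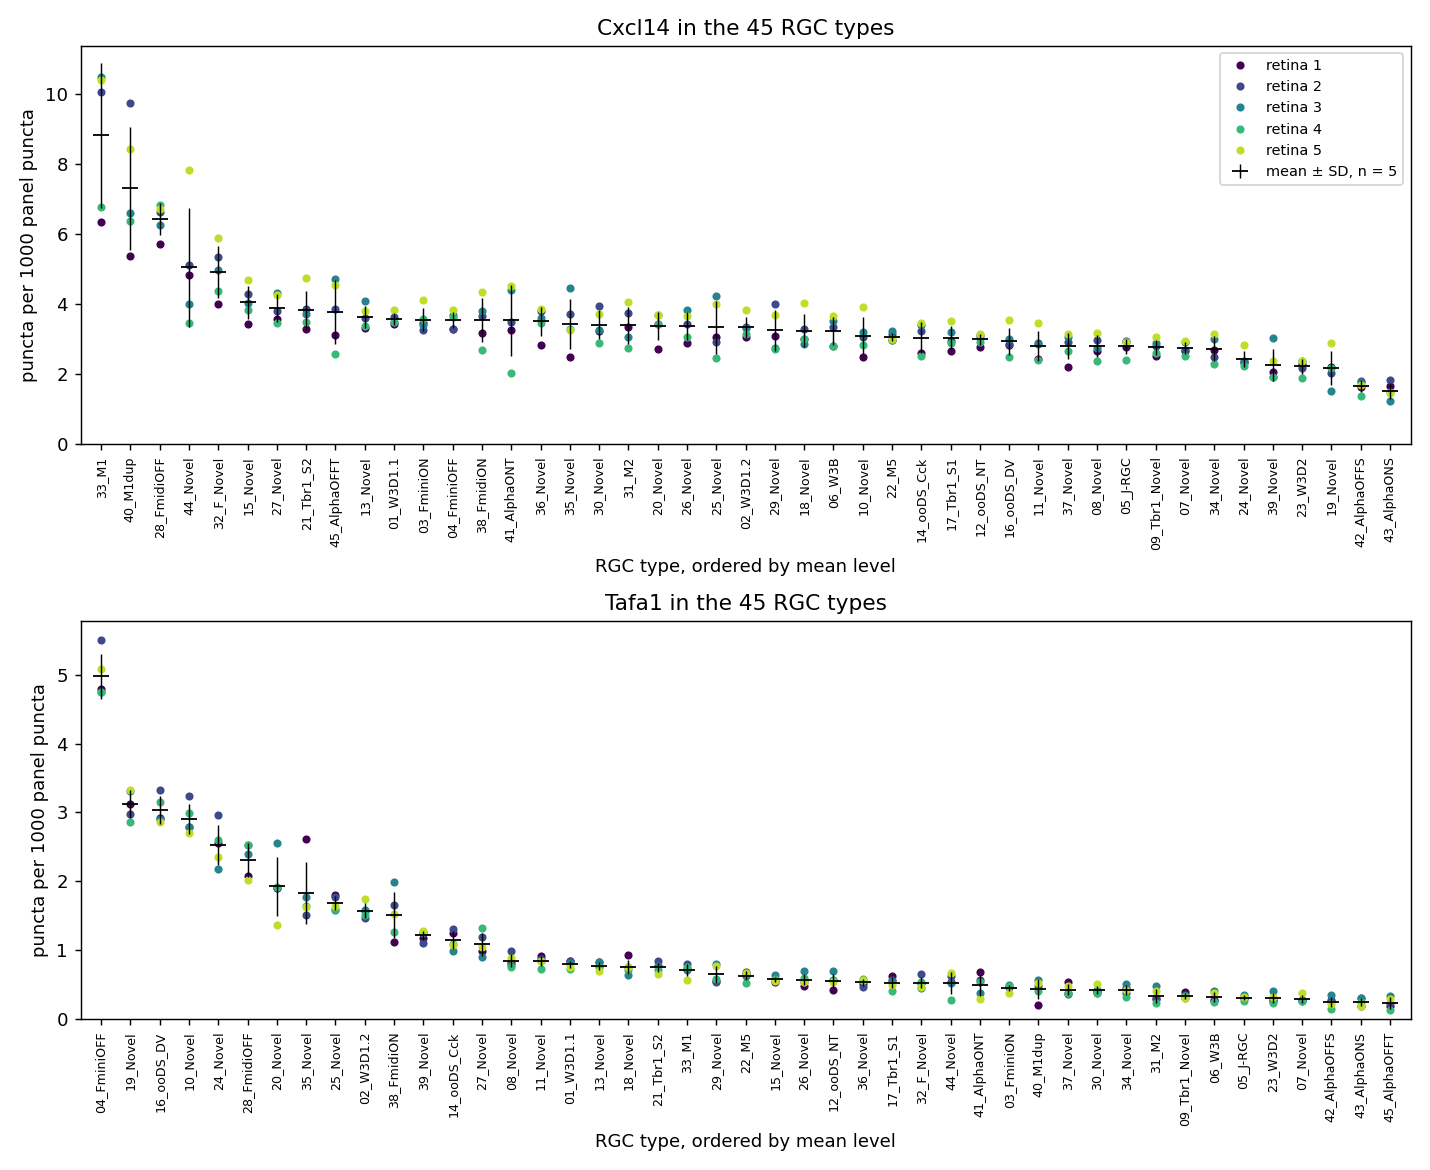
Level of each gene (puncta per 1000 panel puncta) in the 45 RGC types, with 1 point per retina and a bar for the mean ± SD (n = 5). Tafa1 falls steeply from 4.98 in 04_FminiOFF to 0.23 in 45_AlphaOFFT, whereas Cxcl14 is near 3.33, its median type level, in most types.

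The genes whose levels over the 45 types were most like Cxcl14, by Spearman's rho, were Tac2 (0.80), a neuropeptide precursor; Chat (0.75), the enzyme that makes acetylcholine; C1ql2 (0.73), a secreted C1q-like protein; and the transcription factors Maf (0.71) and Tfap2a (0.71). Chat and Tfap2a are known as amacrine cell genes. Least like it were Sh3bgr (-0.52), the NMDA receptor subunit gene Grin1 (-0.49) and the potassium channel gene Kcnn1 (-0.44). For Tafa1, genes among the most alike were Kcnq3 (0.70), a potassium channel subunit; Ebf3 (0.56), a transcription factor; Cacng7 (0.51), an AMPA receptor auxiliary subunit; and Lrrn3 (0.47). Least like it were the transcription factor gene Etv1 (-0.59), the kinase gene Stk32a (-0.59) and the growth factor gene Fgf1 (-0.55).

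The spread from cell to cell within a type set the genes apart as well. Cxcl14 had 135535 puncta in all, 1.03 per cell, and was detected in 46.0% of cells. The 4.48% of cells with 5 or more puncta held 33.2% of them, and the highest cell had 40. The variance over the mean of the count within a type had a median over types of 3.17 and reached 10.6 in 40_M1dup. Tafa1 had 47934 puncta, 0.365 per cell, was detected in 23.7% of cells and reached 16 puncta in a cell. Its variance over mean was 1.25 in the median type and 1.77 at most, in 16_ooDS_DV. This ratio also grows with the level of a gene and with uneven depth. With every cell thinned to 100 puncta, which makes depth even, and cells of the retinas pooled, it was 1.58 for Cxcl14 and 1.06 for Tafa1 in the median type. The median gene of the panel was at 1.12, and Cxcl14 stood at place 7 and Tafa1 at 227 of 300. Of the Tafa1 puncta, 6.64% were in cells with 5 or more, which were 0.422% of cells. As the mean counts of the genes differ, the shares above this cut are not compared between them.

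In the thinned cells, where types of different depth can be compared, Cxcl14 was detected in 13.7% to 39.8% of the cells of a type and Tafa1 in 2.38% to 38.4%. Unthinned, the shares were 36.5% to 64.7% and 7.82% to 72.0%. Both ranges put 28_FmidiOFF highest for Cxcl14 and 04_FminiOFF highest for Tafa1.

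To see what else marked cells with Cxcl14, cells with at least 1 punctum were compared with cells of the same types without one, leaving Cxcl14 itself out of the totals. By limma on the 5 within-retina differences with Benjamini-Hochberg adjustment, 75 genes were higher (25.1%) and 104 lower (34.8%) of 299 tested, 59.9% in all. The largest change upward was in Tac2, followed by Crabp1, which binds retinoic acid (log2 difference 0.87 ± 0.07 SE, adjusted p = 0.000324). Tac2 was at 1.31, 1.51, 1.61, 1.17 and 1.62 in cells with Cxcl14 of retinas 1 to 5, and at 0.564, 0.460, 0.575, 0.431 and 0.653 in cells without. The means were 1.44 ± 0.20 and 0.537 ± 0.091 (log2 difference 1.35 ± 0.07 SE, adjusted p = 0.000115). Gad1, which makes GABA, was at 2.71 ± 0.33 and 1.57 ± 0.14 (0.76 ± 0.03 SE, adjusted p = 7e-05). Chat was at 1.11 ± 0.12 and 0.608 ± 0.061 (0.82 ± 0.06 SE, adjusted p = 0.000239). Tac2, Chat and Gad1 were each higher in 5 of 5 retinas, and the range of each in cells with Cxcl14 lay above that in cells without.

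Tfap2a (log2 difference 0.59), C1ql2 (0.57), the neuropeptide gene Npy (0.56) and the nitric oxide synthase gene Nos1 (0.50) also rose. Of the list of 15 amacrine genes on the panel, 10 rose and 1 fell, with a median log2 difference of 0.16 against -0.02 over all genes tested. Over all types together, with no matching by type, the summed level of that list was 39.1 to 40.8 in cells without Cxcl14. In cells with it, the summed level was 43.9 to 46.4. None of the 15 was at 0 in either group. Of the 7 RGC markers on the panel, 0 rose and 4 fell. Rbpms fell by 0.06 on the log2 scale (adjusted p = 0.00783), and Slc17a6 differed by -0.02 (adjusted p = 0.194). Of 24 genes for secreted signals and matrix, 7 rose and 11 fell. Spp1, which encodes osteopontin, was the most abundant of the named genes that fell (4.30 ± 0.39 without and 3.48 ± 0.30 with Cxcl14, log2 difference -0.30, adjusted p = 0.000315). Gsg1 (-0.50), the endothelial cadherin gene Cdh5 (-0.45), Lmo2 (-0.40) and the photoreceptor genes Cngb1 (-0.38), Cacna2d4 (-0.35) and Guca1b (-0.31) fell too, as did the GABA receptor gene Gabrr2 (-0.34).

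Cells with Cxcl14 were also deeper: the median was 280 puncta in cells with none and 313 in cells with 1. The test was therefore repeated with the cell's group set by 100 of its puncta and the other genes counted in the rest. Then 141 genes were called, 78 higher and 63 lower, and 112 of the 141 were among the 179 above. The 8 named genes that rose were called again, with log2 differences between 0.57 for Npy and 1.41 for Tac2, and 11 of the 15 amacrine genes rose and 0 fell. Of the 7 RGC markers, 0 rose and 6 fell. Of the named genes that fell, Gsg1, Lmo2, Spp1 and Cdh5 were called again. Cngb1 (adjusted p = 0.141), Cacna2d4 (adjusted p = 0.301) and Guca1b (adjusted p = 0.106) were not, and Gabrr2 turned to 0.03 (adjusted p = 0.711).

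The levels of the amacrine list, Tac2 and Rbpms differed step by step with the number of Cxcl14 puncta in the cell. From cells with none, through 1, 2 to 4 and 5 to 9, to the 1103 cells with 10 or more, the amacrine list went from 39.9 to 42.8, 46.9, 55.2 and 59.9. Tac2 went from 0.514 to 0.756, 1.41, 3.31 and 8.20 over the same steps. Rbpms went the other way, from 20.8 to 20.7, 19.8, 17.9 and 15.8. Chat went from 0.582 to 0.831, 1.25 and 1.76, and was back at 1.51 in cells with 10 or more. Slc17a6 went from 35.6 to 35.9, 35.4, 33.0 and 29.6. These are means over the retinas for all types together, given with no test. Cells with 5 or more puncta of Tafa1 had less of the amacrine list than cells with none (37.1 ± 1.7 against 43.0 ± 0.8 at 5 to 9 and 0 puncta) and more Rbpms (22.1 ± 2.0 against 19.9 ± 0.9). Only 8 cells had 10 or more Tafa1 puncta.

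**Figure D2:**
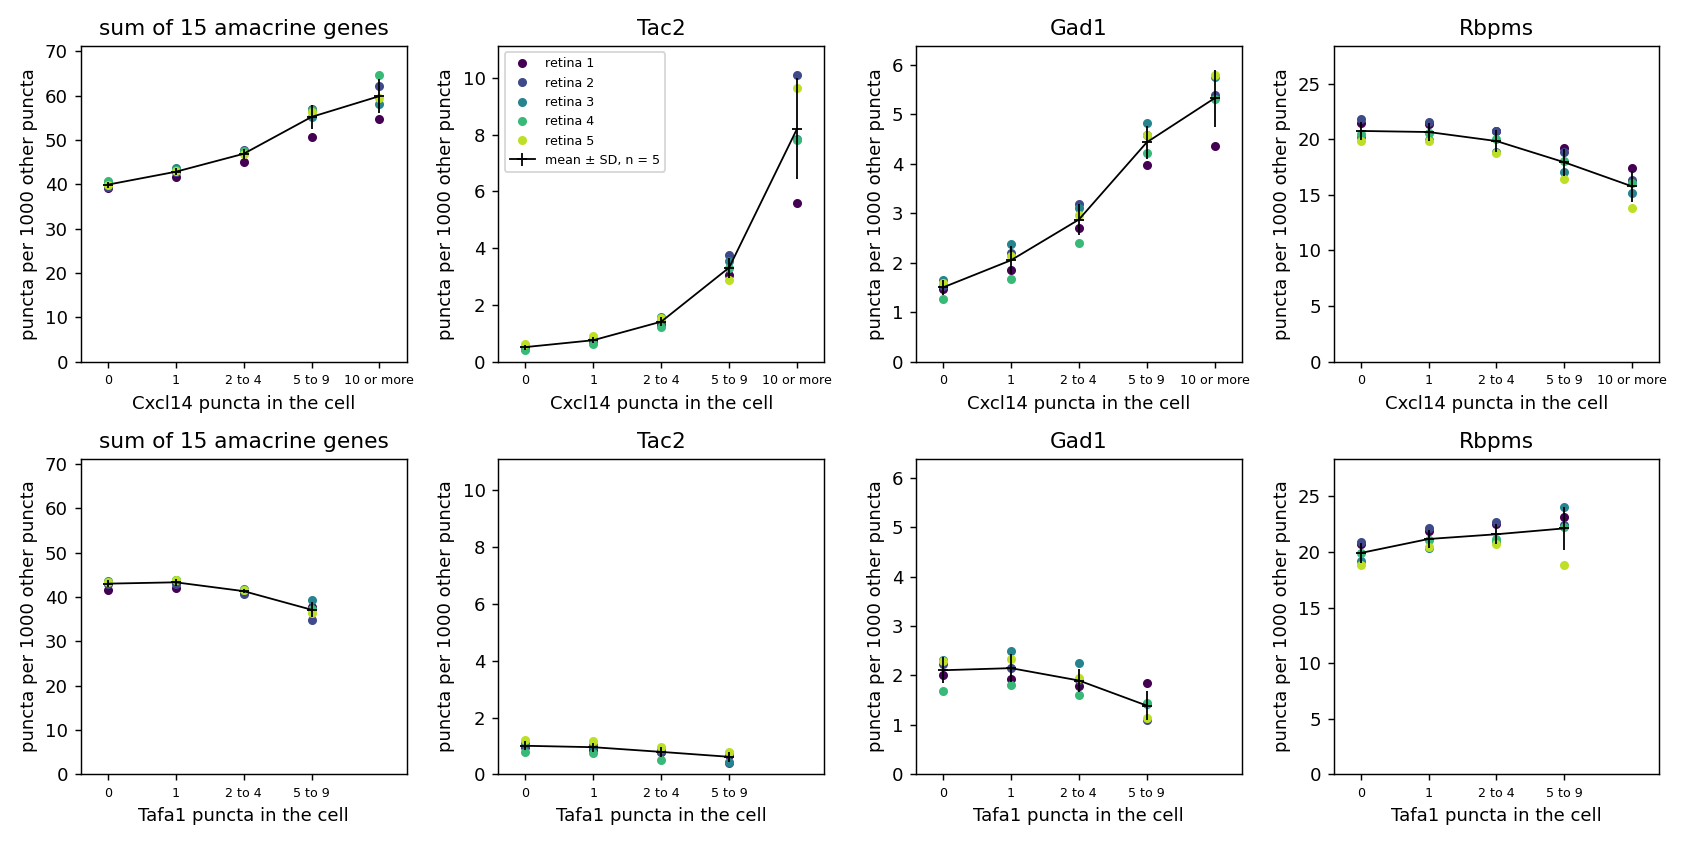
Level of the summed amacrine list, Tac2, Gad1 and Rbpms (puncta per 1000 puncta of the other genes) by the number of Cxcl14 puncta (top) or Tafa1 puncta (bottom) in the cell, with 1 point per retina and mean ± SD (n = 5). The amacrine list climbs from 39.9 to 59.9 with Cxcl14 and Rbpms drops from 20.8 to 15.8; with Tafa1 neither does, and the class of 10 or more is left out since it held 8 cells.

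In each of the 6 types where Cxcl14 was highest, the amacrine list and Tac2 were higher in cells with 5 or more puncta than in cells with none, described here over pooled cells with no test. Rbpms was lower in 5 of these types; in 44_Novel it was 21.3 in the 21 cells with 5 or more and 17.6 in the 182 with none. Slc17a6 was higher in cells with 5 or more in 33_M1 (20.3 against 18.6) and 44_Novel (23.0 against 11.6). It was lower in the rest of these types. In 33_M1, the 212 cells with 5 or more Cxcl14 puncta had an amacrine list level of 67.1 and a Tac2 level of 15.9, against 40.8 and 1.17 in the 680 cells with none. Their level of Opn4, the melanopsin gene that marks M1 cells, was 5.93 against 19.2. In 40_M1dup, Opn4 was 13.3 in the 104 cells with 5 or more and 32.9 in the 328 with none. In 28_FmidiOFF, Foxp2, which marks F-RGCs, was 3.61 and 4.45.

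In cells with no punctum of Gad1, Gad2, Chat, Tfap2a or Tfap2b, which were 39534 or 30.1% of all, Cxcl14 was at 1.85 against 3.78 in the other cells. Tafa1 was at 1.17 against 1.10. The median depth was 267 puncta in these cells and 319 in the others. In these cells the level of Cxcl14 was 3.76 ± 3.10 in 33_M1 (245 cells) and 3.57 ± 0.60 in 28_FmidiOFF. That of Tafa1 in 04_FminiOFF was 5.25 ± 0.25. The order of the 45 types had a Spearman's rho with that in all cells of 0.68 for Cxcl14 and 0.96 for Tafa1. Against all cells, the median change over the types was -0.83 on the log2 scale for Cxcl14 and 0.0007 for Tafa1. This screen was added after the data were seen, and the part of amacrine RNA in the Cxcl14 level of RGCs was not tested beyond these values.

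The same comparison for Tafa1 gave 41 genes higher (13.7%) and 101 lower (33.8%) of 299, 47.5% in all (limma). Mmp9, a matrix metalloprotease gene, was at 5.32, 5.45, 6.34, 5.44 and 5.49 in cells with Tafa1 of retinas 1 to 5, and at 4.49, 4.31, 4.55, 4.29 and 4.09 in cells of the same types without. The means were 5.61 ± 0.41 and 4.35 ± 0.18 (log2 difference 0.36 ± 0.03 SE, adjusted p = 0.0023). It was higher in 5 of 5 retinas and the ranges did not overlap. The matrix gene Npnt (0.30), the transcription factor gene Foxp1 (0.20), the NMDA and AMPA receptor subunit genes Grin3a (0.23) and Gria1 (0.19), the calcium channel gene Cacna1i (0.19) and Crabp1 (0.15) also rose. Of the 15 amacrine genes, 0 rose and 1 fell; of 12 bipolar cell genes, 0 rose and 9 fell. With group and outcome taken from separate puncta, 1 of 299 genes was called, Mmp9 (0.25 ± 0.02 SE, adjusted p = 0.0095). The median depth was 289 puncta in cells with no Tafa1 and 329 in cells with 1. The genes that fell were not called in that setting, and Crabp1 was at 0.05 (adjusted p = 0.803). Foxp1 (0.22), Grin3a (0.21), Cacna1i (0.20), Gria1 (0.18) and Npnt (0.18) stayed above 0 but were not called (limma, adjusted p from 0.116 to 0.215). That setting used 16 to 38 types per retina, against 37 to 44 in the first comparison.

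Whether both genes were found in the same cells was asked within types, with each cell thinned to 100 puncta. The log2 odds ratio of finding both was 0.13, 0.13, 0.13, 0.33 and 0.09 in retinas 1 to 5 (0.163 ± 0.095), above 0 in all 5. By exact sign-flip permutation over the retinas the two-sided p was 0.062, the smallest that 5 retinas allow. Counting a gene as found from 2 puncta on, it was -0.26 ± 0.45 (exact permutation p = 0.312). Over the panel, 78 of 299 genes had a log2 odds ratio with Cxcl14 above 0 in all retinas, and 57 had one below 0. With Tafa1 these were 26 and 51 of 299. In the comparisons above, Tafa1 rose by 0.06 in cells with Cxcl14 (limma, adjusted p = 0.0142) and by 0.10 with group and outcome from separate puncta (adjusted p = 0.0143). Cxcl14 rose by 0.20 in cells with Tafa1 (adjusted p = 0.000767) but was at 0.13 with adjusted p = 0.123 from separate puncta.

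Cells next to each other were compared too, within a section and a type, with the same thinned counts. If an RGC had Cxcl14, its nearest RGC was more likely to have it, with a log2 odds ratio of 0.42, 0.49, 0.53, 0.42 and 0.42 in retinas 1 to 5 (0.457 ± 0.052, exact permutation p = 0.062 with two-sided sign flips, the smallest possible). The ratio was 0.233 ± 0.058 for the 5th neighbour, 0.181 ± 0.044 for the 10th, 0.140 ± 0.034 for the 20th and 0.144 ± 0.101 for the 50th, above 0 in every retina each time. For Tafa1 it was 0.172 ± 0.132 for the nearest, above 0 in 5 of 5, and 0.015 ± 0.064 for the 5th, above 0 in 2 of 5. Over the panel genes with a ratio in every retina, the median for the nearest neighbour was 0.240. Among these genes Cxcl14 stood at place 92 and Tafa1 at 172. Of all 300 genes, 193 were above 0 in all retinas.

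**Figure D3:**
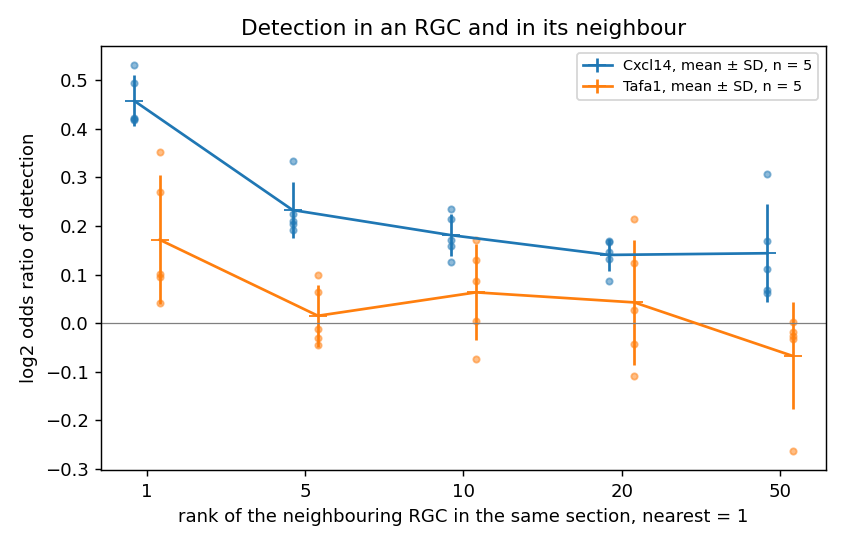
Log2 odds ratio that a gene is detected in an RGC and in its 1st, 5th, 10th, 20th or 50th nearest RGC of the same section, with 1 point per retina and mean ± SD (n = 5). Cxcl14 drops from 0.457 at the nearest neighbour to 0.140 at the 20th and lies above 0 in every retina, and Tafa1 is around 0 from the 5th on.

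Position in the retina was the last question. The authors scaled each retina to a circle; the anatomical directions of its X and Y axes are not given in the sources used here. Tafa1 was lower on the side of positive X. Its levels were 1.19, 1.28, 1.20, 1.17 and 1.25 in retinas 1 to 5 at negative X and 1.06, 1.13, 1.00, 1.04 and 0.923 at positive X. Every retina fell and the sides did not overlap. The log2 change was -0.24 ± 0.05 SE (edgeR's quasi-likelihood test, adjusted p = 0.0261), where 10% of the 300 genes were called, and 3.67% of the 300 were called downward. The call was lost without retina 1, 2, 3 or 4 (adjusted p = 0.0758, 0.096, 0.0643 and 0.0832) and with no term for the retina (0.262), all with the same sign. With each type given the same weight on either side, the change was -0.19 ± 0.04 SE, lower in 5 of 5 retinas (limma, adjusted p = 0.130). There 0.333% of genes were called.

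Along Y, the levels of Tafa1 were 1.22, 1.33, 1.16, 1.23 and 1.09 at negative Y and 1.02, 1.01, 1.08, 0.919 and 1.08 at positive Y. They were lower at positive Y in every retina, by almost nothing in retina 5, and the sides did not overlap. The log2 difference was -0.25 ± 0.07 SE, with adjusted p = 0.421 by edgeR. On this axis edgeR called 0 of the 300 genes (0%), with 29 at an unadjusted p under 0.05, and DESeq2 called 6. With each section as a block, which counts sections of a retina as replicates, the Tafa1 difference was -0.32 (adjusted p = 0.000179). By quadrant of the circle Tafa1 was highest where X and Y were both negative, at 1.30 ± 0.06, and lowest where both were positive, at 0.945 ± 0.070. The other quadrants were at 1.10 ± 0.16 and 1.11 ± 0.10. The values of every retina in the highest quadrant lay above those of every retina in the lowest.

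Within single types, edgeR called 0 types for Tafa1 along X of 42 tested, with 10 at an unadjusted p under 0.05, and 0 of 41 along Y, with 7; DESeq2 also called 0 on each. Over all type-gene pairs 0.281% were called along X and 0.37% along Y. The Tafa1 difference was below 0 in 37 of the 42 types along X, with a median of -0.19, and in 37 of the 41 along Y, with a median of -0.20.

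Of the types where Tafa1 was highest, 04_FminiOFF made up 3.51% ± 0.18 of RGCs at negative X and 3.06% ± 0.34 at positive X, lower in all 5 retinas. For 16_ooDS_DV these shares were 4.57% ± 0.39 and 4.62% ± 0.41. The amacrine list was 43.0 and 42.6 on the 2 sides. The summed Müller glia and astrocyte markers were each higher at positive X in 5 of 5 retinas (5.39 against 4.75, and 1.38 against 1.28), and their part in the Tafa1 difference was not tested.

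Cxcl14 differed little along X or Y. It was 3.24 ± 0.39 at negative and 3.31 ± 0.34 at positive X (log2 difference 0.04 ± 0.05 SE, higher in 3 of 5 retinas, edgeR, adjusted p = 0.618), and its sign turned under 3 alternative settings. Along Y it was 3.18 ± 0.32 and 3.36 ± 0.39 (0.07 ± 0.05 SE, higher in 4 of 5, adjusted p = 0.58). No single type was called for Cxcl14 by edgeR or DESeq2 among the 43 tested along X or the 42 along Y, and 5 on each axis had an unadjusted p under 0.05.

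Cxcl14 was lower in the periphery than in the centre; this difference was already known when the gene was chosen and is described without a test. Within a radius of 0.5 of the scaled circle its levels were 3.73, 3.47, 3.73, 3.26 and 3.92 in retinas 1 to 5, and outside it 2.72, 3.26, 2.96, 2.79 and 3.57. Every retina was lower outside, although the ranges of the retinas overlapped. The fitted log2 difference was -0.26 ± 0.05 SE, and -0.25 ± 0.05 SE with the same weight for each type on either side. In 4 rings from the centre outward, with limits at 0.25, 0.5 and 0.75, the level was 3.85 ± 0.34, 3.52 ± 0.28, 3.19 ± 0.36 and 2.85 ± 0.39. Retina 3 was higher in the outermost ring than in the one before it. The difference was below 0 in 39 of 40 types, with a median of -0.23. On this axis 6.67% of the 300 genes, 3.33% of the 300 downward, and 2.34% of type-gene pairs were called.

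Both M1 types, where Cxcl14 was highest, made up more of the periphery than of the centre in every retina. 33_M1 was 0.925% ± 0.175 of central and 1.31% ± 0.16 of peripheral RGCs. 40_M1dup was 0.429% ± 0.159 and 0.718% ± 0.227. The summed amacrine list was 43.3 in the centre and 42.6 in the periphery, lower outside in 4 of 5 retinas. Of its 15 genes, 1 rose outside and 1 fell (edgeR), with a median log2 difference of -0.10 against 0.01 over all genes. Chat fell by 0.26 on the log2 scale (adjusted p = 0.0346), a size like that of Cxcl14, and Sst rose by 1.04 (adjusted p = 0.0333). Npy (-0.24, adjusted p = 0.164), Gad1 (-0.23, adjusted p = 0.160) and Tfap2a (-0.18, adjusted p = 0.149) did not pass the test, nor did Tac2 (-0.08, adjusted p = 0.625). Other genes of the list lay above 0 and did not pass either. Among them were Vip (0.26, adjusted p = 0.337), Gad2 (0.10, adjusted p = 0.443) and Slc32a1 (0.06, adjusted p = 0.548). Their part in the Cxcl14 difference was not tested. In cells with no punctum of the 5 screened amacrine genes the Cxcl14 difference was -0.18. Müller glia markers (4.67 and 5.39), rod markers (3.47 and 4.45) and the endothelial marker (0.296 and 0.359) were higher outside in 4 of 5 retinas. So were the bipolar and cone lists and the pericyte marker. The summed RGC markers were lower outside in every retina (86.6 and 84.3). The part of these markers in the Cxcl14 difference was not tested.

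Tafa1 was also lower outside in 4 of 5 retinas, retina 3 being the exception. Its levels were 1.21, 1.27, 1.09, 1.24 and 1.18 in the centre and 1.08, 1.15, 1.14, 1.03 and 0.984 in the periphery. The log2 difference of -0.17 ± 0.06 SE did not pass the test (edgeR, adjusted p = 0.124), but it did with the split at a radius of 0.7 (-0.20, adjusted p = 0.0207). By ring the level was 1.23 ± 0.10, 1.19 ± 0.06, 1.11 ± 0.08 and 1.03 ± 0.05. Of 40 types, 30 were below 0, with a median of -0.19, and 1 was called, downward, where 0.724% of type-gene pairs were: 04_FminiOFF (-0.22 ± 0.06 SE, edgeR, adjusted p = 0.0287). DESeq2 called 0, as did the fits without retina 1 or 4, and without retina 2 the 1 type called was another. Tafa3 was not called on any of the 3 axes (adjusted p = 0.355, 0.758 and 0.568 along X, Y and the radius, edgeR).

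**Figure D4:**
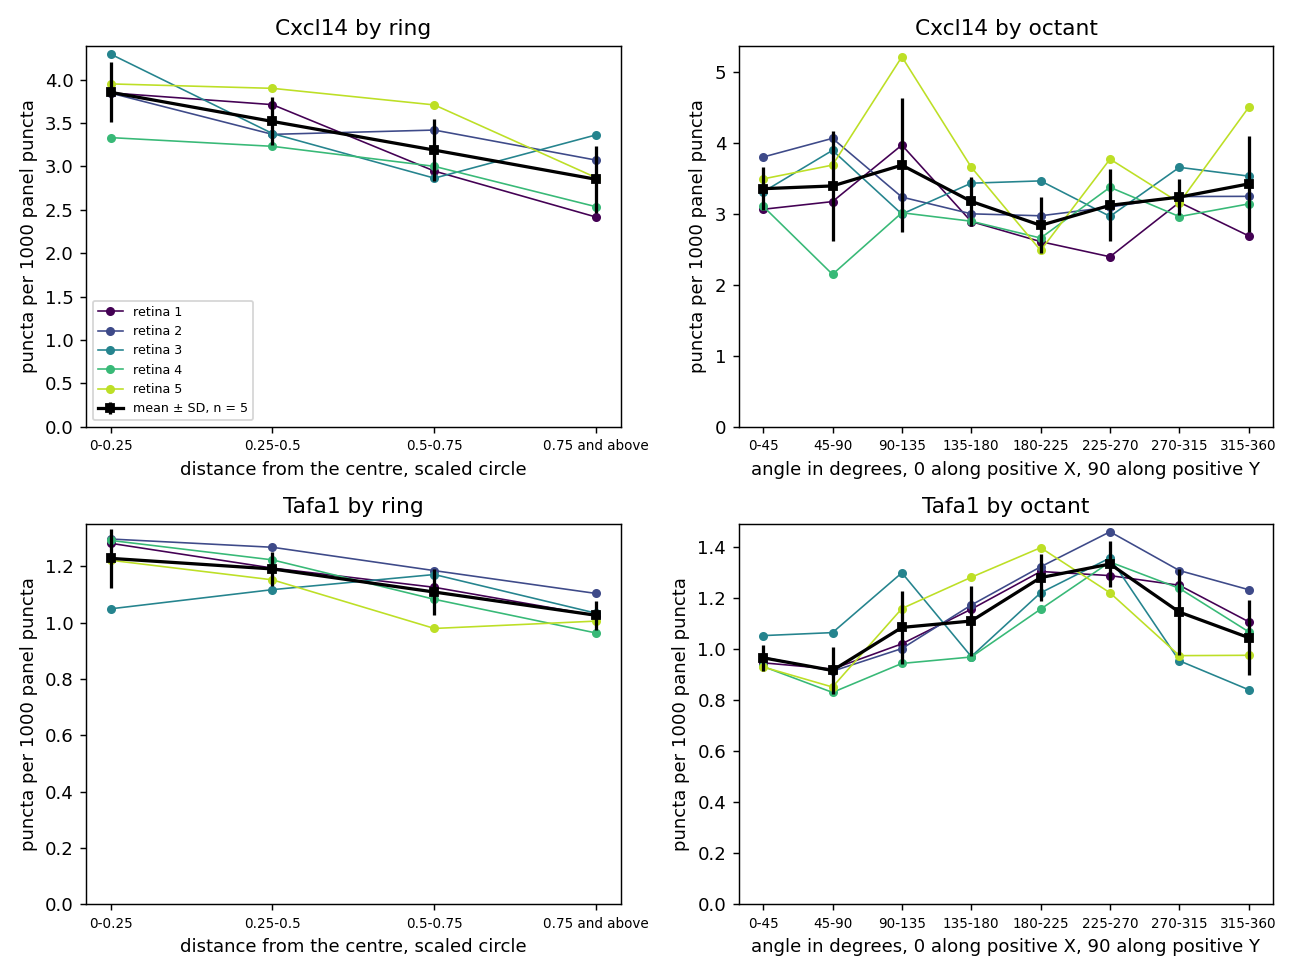
Level of each gene (puncta per 1000 panel puncta) by ring from the centre (left) and by octant of angle on the authors' scaled circle (right), with 1 line per retina and mean ± SD in black (n = 5). Cxcl14 falls from 3.85 in the central ring to 2.85 in the outermost; Tafa1 is highest at 225 to 270 degrees (1.33 ± 0.09) and lowest at 45 to 90 degrees (0.917 ± 0.092).

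Cxcl14 also varied between slides and sections. Its level in whole retinas was 2.97, 3.33, 3.37, 2.94 and 3.76, against 1.11, 1.19, 1.12, 1.10 and 1.09 for Tafa1. On the slide that retinas 4 and 5 shared, Cxcl14 was at 3.49 in retina 4 and 4.59 in retina 5, against 2.76 and 3.01 on their other slides. In retina 3 it was at 3.52 on the slide shared with retina 5 and 2.36 on its other slide, which held 1900 of its cells. Retinas 1 and 2 differed less between their slides (2.73 and 3.11, and 3.07 and 3.35). In retinas 2 and 3 the amacrine list was higher on the slide with less Cxcl14 (45.8 against 42.5 and 48.4 against 42.8). The same held in retina 4 (43.7 against 41.6). In retinas 1 and 5 the list was lower on that slide (41.2 against 41.7 and 42.5 against 44.1). Its part in the slide differences was not tested. Over the 30 sections with at least 500 cells Cxcl14 ranged from 1.63 to 5.66, with a median of 3.19. Tafa1 ranged from 0.816 to 1.38, with a median of 1.10.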

How the data were processed

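Xenium puncta were counted by the authors; per the file headers, the deposited table holds puncta counts per cell for 300 genes, used here as whole-number counts with no normalization. It also gives retina, slide, section, type and scaled position. How cells were segmented, filtered and typed is not stated in the sources used here. Every cell held at least 100 puncta and was classed as an RGC. The 4 deposited samples are slide pairs that no label ties to the table's slides, so the 5 retinas of the table were the replicates. The genes and lists were chosen with earlier results of these data known.

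Counts were summed per retina and side and fitted with edgeR 4.0.16 (quasi-likelihood, retina as a block, TMM, filterByExpr; R 4.3.3). P-values were adjusted by Benjamini-Hochberg over the panel (within types, over all type-gene pairs), with a threshold of 0.05. Axes were split at 0, and the radius at 0.5. Differences at the same type mix (types with at least 20 cells per side) and between cells with and without a gene were taken within each retina as log2(level + 0.05) and tested with limma 3.58.1. Single types needed 50 cells per side in at least 3 retinas. Co-detection and neighbours used Mantel-Haenszel odds ratios per retina. The fits were tested on simulated data. DESeq2 1.42.0, other scaling, filters, blocks and cell minimums, and leaving out each retina were the alternatives. Both genes were named throughout, with their highest 6 and lowest 3 types, the 5 most and 3 least alike genes (1 is not reported here), and up to 8 genes per direction that passed the test with 1 sign in all retinas and at least 100 puncta in each. All 300 panel symbols were found among RefSeq genes of GRCm38.p6; the table names no build, so no coordinates are given.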

Additional observations from a re-analysis of the deposited data

Results flagged for a closer look

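In 5 of 97 sets of 5 retinas, 1 retina stood apart from the others by Dixon's criterion, which flags about 1 in 20 sets by chance. Cxcl14 was low in 20_Novel of retina 1, at 2.70 against 3.43 to 3.67 in the other retinas. It was high in 24_Novel of retina 5, at 2.81 against 2.22 to 2.38. Tafa1 was high in 35_Novel of retina 1, at 2.61 against 1.51 to 1.78. It was high in 07_Novel of retina 5, at 0.383 against 0.261 to 0.273. The log2 odds ratio of finding both genes in a cell was 0.33 in retina 4, against 0.09 to 0.13 in the others.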

How the results depend on the processing

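The lower Tafa1 level at positive X kept its sign in all 13 alternatives, from -0.29 to -0.19 on the log2 scale, but lost the call with no retina term (-0.24, adjusted p = 0.262), in cells without amacrine puncta (-0.26, adjusted p = 0.0501) and without 4 of the retinas (-0.27 to -0.19 over the 5 retinas left out). It passed along Y with sections as blocks (-0.32) and along the radius with the split at 0.7 (-0.20). Cxcl14 along X turned to -0.12 with slides within retinas as blocks, to -0.13 with sections as blocks, and lay between -0.0037 and 0.075 when 1 retina was left out. At the same type mix it lay between -0.0094 and 0.073 over the retinas left out. Along Y it turned to -0.0088 with slides as blocks. Within types, the count of types called when 1 retina was left out was 0 to 1 along X for either gene, 0 to 2 along Y for Tafa1, and 0 to 1 along the radius for Tafa1, where DESeq2 called 0. Co-detection was 0.39 with cells as deposited and -0.26 from 2 puncta on. The genes called with Cxcl14 numbered 118 to 156 when 1 retina was left out, and those with Tafa1 87 to 125, 22 with a gate of 2 puncta and 1 from separate puncta. Crabp1 with Tafa1 turned to -0.072 at 2 puncta and Gabrr2 with Cxcl14 to 0.032 from separate puncta. The highest Cxcl14 type fell to 3.76 in cells without amacrine puncta. The causes were not tested, apart from fewer retinas or cells where these were left out. With 1 group there are no replicate numbers to pair across groups; the pairing is within retinas, and without it the Tafa1 call along X was lost, as given above. Depth limits detection shares: at 100 puncta per cell Tafa1 was found in as few as 2.38% of the cells of a type.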
